A study of Mus musculus with 3 samples.

Results

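Accessibility was followed at 8 genes for transporters that return amino acids from the tubular fluid to the blood: Slc6a19, Slc6a18, Slc3a1, Slc7a9, Slc7a13, Slc1a1, Slc7a7 and Slc7a8. They were chosen by name, 8 of the 49943 mouse genes that could be placed on a chromosome, and each was read as the transposase counts in all peaks that overlap its body extended by 2 kb on both sides. Counts were summed per library and cell class, and proximal tubule cells were split into late cells, marked by Slc22a7, and early cells, marked by Slc5a2. Levels are given in CPM, the counts in a gene's peaks per 1000000 counts of the same cells in all peaks.

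Cells were taken from kidneys of mice with a point mutation of the mitochondrial glutamate tRNA gene, trnE, and profiled by mtscATAC-seq, in which permeabilised cells keep their mitochondria while transposase marks open chromatin. The old group held 75-week-old kidneys, replicate 1 at a mutation load of 75% and replicate 2 at 80%, and the young group held 1 library from a 3-week-old kidney at 80%. All 3 libraries carry the mutation, so the mutation itself is not compared here, and the sources give neither strain nor sex. No label says whether the old kidneys are from different mice. A p-value for age rests on the spread between the 2 old libraries. For late against early it rests on how far that difference disagrees between 2 libraries. Either spread may be technical. With so few libraries the test draws the spread of each gene or region toward that of all those tested. A p-value therefore does not measure how well the libraries agree on that gene alone.

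The proximal tubule takes up nearly all filtered amino acids, through carriers of the brush border that admit them and carriers of the basolateral membrane that pass them to the blood. Several of these carriers work as pairs of a light chain, which transports, and a heavy chain, which brings the light chain to the membrane. Early segments are known for fast uptake of large loads, and the late segment for uptake of what is left.

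At the brush border, Slc6a19 (B0AT1) is the main carrier of neutral amino acids and is the gene of Hartnup disorder in humans, and Slc6a18 is its relative next door on the chromosome. Slc3a1 (rBAT) is the heavy chain and Slc7a9 (b0,+AT) the light chain of the cystine and dibasic amino acid exchanger, the genes of cystinuria. Slc7a13 is another light chain that pairs with Slc3a1 in the mouse, and Slc1a1 (EAAC1) takes up glutamate and aspartate. On the basolateral side, Slc7a7 (y+LAT1), the gene of lysinuric protein intolerance, releases dibasic amino acids, and Slc7a8 (LAT2) exchanges neutral ones. Both basolateral light chains pair with Slc3a2.

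In mm10, Slc6a18 lies at chr13:73661750-73678023 and Slc6a19 at chr13:73679745-73700780, so their windows share 2 peak regions. Slc3a1 lies at chr17:85028347-85064241, Slc7a9 at chr7:35448727-35466034, Slc7a13 at chr4:19818727-19842213 and Slc1a1 at chr19:28835135-28913960. Slc7a7, at chr14:54369442-54420068, and Slc7a8, at chr14:54722215-54781886, are on the same chromosome. The 8 windows held 97 gene and region pairs, 95 distinct regions after peaks of the libraries were merged, and 35 of these had a peak in every library. Another 14 of the 95 had a peak only in old replicate 1, as did 31.2% of the 250005 merged regions, and 29 had one in both other libraries and none in old replicate 1, as did 18% of all.

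The 250 bases before the start are shown for the genes whose start regions are compared below, read from the RefSeq promoter table (GRCm38.p6, the assembly of mm10), on the gene's own strand. Each of these windows touched 1 peak region. Capitals mark matches to short motifs of the tubule factors HNF1 and HNF4, searched on both strands.

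Slc6a19, start 73692636, chr13:73692637-73692886, minus strand: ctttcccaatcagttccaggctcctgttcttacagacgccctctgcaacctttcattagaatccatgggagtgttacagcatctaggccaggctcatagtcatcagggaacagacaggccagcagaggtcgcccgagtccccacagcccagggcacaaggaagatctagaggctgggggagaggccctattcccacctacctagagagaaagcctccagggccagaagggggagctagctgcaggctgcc

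Slc3a1, start 85028347, chr17:85028097-85028346, plus strand: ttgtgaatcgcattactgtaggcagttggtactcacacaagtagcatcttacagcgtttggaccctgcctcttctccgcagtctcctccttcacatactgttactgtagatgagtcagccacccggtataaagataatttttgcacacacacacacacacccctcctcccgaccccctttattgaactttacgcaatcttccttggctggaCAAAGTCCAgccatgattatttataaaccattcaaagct

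Slc7a9, start 35449092, chr7:35448842-35449091, plus strand: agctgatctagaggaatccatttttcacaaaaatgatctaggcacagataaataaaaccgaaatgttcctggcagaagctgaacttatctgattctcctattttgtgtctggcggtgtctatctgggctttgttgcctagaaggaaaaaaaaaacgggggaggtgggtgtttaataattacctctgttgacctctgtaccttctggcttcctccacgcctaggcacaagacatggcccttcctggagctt

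Slc7a7, start 54410203, chr14:54410204-54410453, minus strand: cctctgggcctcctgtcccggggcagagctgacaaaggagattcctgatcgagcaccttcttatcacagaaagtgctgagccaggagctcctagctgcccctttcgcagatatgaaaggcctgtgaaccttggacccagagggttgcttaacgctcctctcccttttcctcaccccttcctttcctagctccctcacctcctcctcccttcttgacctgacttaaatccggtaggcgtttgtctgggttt

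Slc7a7, start 54409472, chr14:54409473-54409722, minus strand: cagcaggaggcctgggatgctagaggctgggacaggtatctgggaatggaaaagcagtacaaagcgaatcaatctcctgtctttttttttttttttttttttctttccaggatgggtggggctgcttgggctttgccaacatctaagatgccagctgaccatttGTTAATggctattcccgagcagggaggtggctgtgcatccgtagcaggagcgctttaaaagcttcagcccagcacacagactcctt

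Slc7a8, start 54781886, chr14:54781887-54782136, minus strand: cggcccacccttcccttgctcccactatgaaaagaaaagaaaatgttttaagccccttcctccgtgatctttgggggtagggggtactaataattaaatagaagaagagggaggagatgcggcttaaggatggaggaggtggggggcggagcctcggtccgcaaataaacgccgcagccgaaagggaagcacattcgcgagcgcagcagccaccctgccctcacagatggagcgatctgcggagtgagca

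The table held 11 entries for 6 of the 8 genes. Of the 4 motifs searched, the HNF4 motif CAAAGTCCA was found in 1 of the 11, at Slc3a1, with its first base at position -39 from the start; 0.384% of the 32851 promoters in the table hold it. The single HNF1 arm GTTAAT was found in 1 of the 11, at position -86 of the Slc7a7 start at 54409472, and 6.43% of all promoters hold it. The full HNF1 palindrome GTTAATNATTAAC (0.00913% of promoters) and the HNF4 motif CAAAGGTCA (0.426%) were in none of the 11 windows. The matches did not overlap. A match is a description of these letters only.

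The libraries differed in make-up and depth. After filtering, old replicate 1 kept 5315 cells, old replicate 2 kept 3950 and the young library 3976, of which 255, 3503 and 3329 were proximal tubule-like by their markers. Old replicate 1, although labelled kidney, held 2363 macrophage or dendritic cell-like cells and 2458 cells in clusters without a name. Total counts in peaks were 96093221, 64729297 and 110871506, the median per barcode 16288.5, 13338.5 and 23319.5, and pairs of libraries shared 28 to 39 barcodes. The 12 proximal tubule markers summed to 1452, 1645 and 1798 CPM in proximal tubule-like cells, with 0 of them at 0. Most of those cells in old replicate 2 were in clusters 3 and 5 and most in the young library in clusters 2, 4 and 7, clusters held almost wholly by single libraries.

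Accessibility at 7 of the 8 genes was higher in proximal tubule-like cells than in every other named class of the same library, in all 3 libraries; the exception was Slc7a8. The count of 7 was the same with fragments, with regions common to the libraries and with finer clusters. Without old replicate 1 it was 8, and 7 over common regions. How many of all genes meet the same rule was not counted, so 7 of 8 has no background share beside it. Cells of 1 class come from 1 sample each time, so these are values per library, with exact Poisson intervals for counting error where given, and were not tested.

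Values are given for old replicate 1, then old replicate 2, then young. Slc6a19 had 186, 193 and 235 CPM in proximal tubule-like cells. Loop to collecting duct-like cells followed with 118, 112 and 149 CPM, a 1.57-fold to 1.72-fold difference within libraries. Macrophage or dendritic cell-like cells had 3.70 CPM in old replicate 1 and 4.39 CPM among young cells. The neutral amino acid carrier was thus also open outside the proximal tubule-like clusters, mainly at 2 regions: the start region at 73692103 had 88.3, 63.3 and 100.2 CPM in loop to collecting duct-like cells, and the region at 73680160 had 27.3, 38.5 and 37.8.

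Its neighbour Slc6a18 was more restricted, with 41.6, 32.8 and 46.3 CPM in proximal tubule-like cells. In loop to collecting duct-like cells it had 0, 7.64 and 8.49 CPM, and the count of 0 in old replicate 1 allows up to 7.50 CPM at the upper 95% bound on fragments. Slc3a1 had 114, 164 and 151 CPM in proximal tubule-like cells, against 46.2, 55.1 and 27.6 in loop to collecting duct-like cells. Its light chain Slc7a9 had 62.6, 70.5 and 73.4 CPM in proximal tubule-like cells, against 16.8, 24.0 and 19.5. In macrophage or dendritic cell-like cells of old replicate 1 both chains were near 0, at 0.763 CPM for Slc3a1 and 0.262 CPM for Slc7a9.

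Slc1a1 had 64.0, 85.1 and 74.0 CPM in proximal tubule-like cells, against 10.5, 19.9 and 22.5 in loop to collecting duct-like cells. Slc7a13 had the lowest CPM of the 8 in proximal tubule-like cells, 15.5, 17.9 and 21.7, and 2.1, 3.0 and 3.82 in loop to collecting duct-like cells. CPM is not scaled to peak length, and values per kilobase are given below. A single region, chr4:19816805-19817722, just outside the gene body, held 97.4%, 88.2% and 93.9% of the proximal tubule-like counts of Slc7a13.

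The basolateral genes were open in more classes. Slc7a7 had 143, 235 and 231 CPM in proximal tubule-like cells and 51.5, 68.8 and 74.3 in loop to collecting duct-like cells. Endothelium-like cells had 63.7, 48.9 and 113 CPM of Slc7a7, the last from 72 counts (95% interval 79.6 to 156). Macrophage or dendritic cell-like cells had 65.8 CPM in old replicate 1 and 58.1 CPM among young cells.

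Slc7a8 had 68.6 CPM in proximal tubule-like cells of old replicate 1 (59.0 to 79.3), 119 in those of old replicate 2, and 128 in young ones. In macrophage or dendritic cell-like cells it had 133 CPM in old replicate 1 (128 to 138) and 86.6 in the young library (61.9 to 118). It was therefore lower in the proximal tubule-like cells than in the macrophage or dendritic cell-like cells of old replicate 1, 0.515-fold, and higher in those of the young library, 1.48-fold. Over regions common to the libraries the young direction turned, at 101 CPM in proximal tubule-like and 109 CPM in macrophage or dendritic cell-like cells. Old replicate 2 had only 4 macrophage or dendritic cell-like cells and gives no value. The level in old replicate 1's unnamed cluster 6, whose leading genes include Cd300a and Lrrc25, was 111 CPM.

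**Figure D1:**
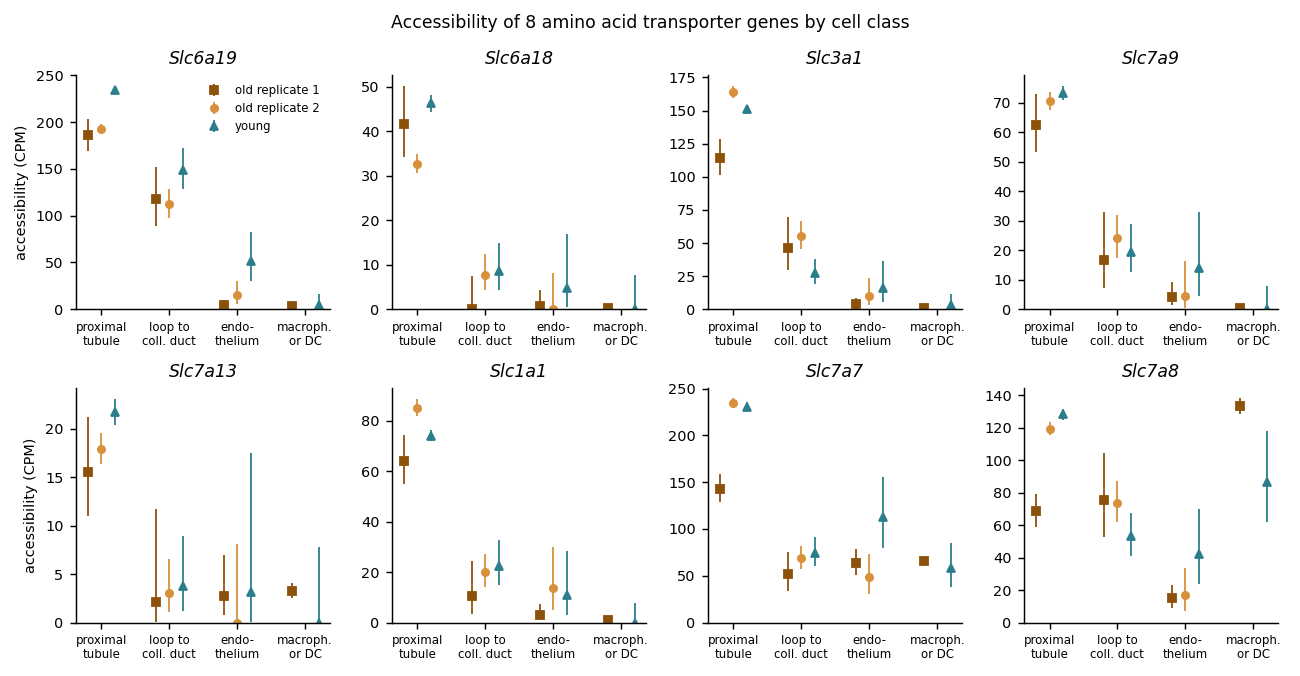
Accessibility of each gene (CPM) in proximal tubule-like cells and in the 3 other named classes, 1 point per library with its exact 95% Poisson interval on fragments. Proximal tubule-like points lie above the others for 7 genes in every library, while Slc7a8 in macrophage or dendritic cell-like cells of old replicate 1 (133 CPM) lies above its proximal tubule-like value (68.6 CPM).

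Different regions of Slc7a8 carried the counts in the 2 cell classes. In old replicate 1, 9 of its 14 peaks were higher in macrophage or dendritic cell-like than in proximal tubule-like cells, as were 53.8% of the 166973 peaks of that library, and 4 of the 9 had a peak only there. The region chr14:54742058-54742985 had 23.1, 24.2 and 33.1 CPM in proximal tubule-like cells and 0.191 CPM in macrophage or dendritic cell-like cells of old replicate 1, 2.19 in those of the young library. The region chr14:54756115-54757144 showed the reverse, with 1.21, 3.14 and 3.13 CPM in proximal tubule-like cells, against 26.9 and 28.5 CPM in macrophage or dendritic cell-like cells of old replicate 1 and the young library. Another region, at 54754200, had 5.43, 4.05 and 3.83 CPM in proximal tubule-like cells, 23.1, 21 and 14.9 in loop to collecting duct-like cells and 21.4 and 26.3 in macrophage or dendritic cell-like cells. The start region at 54781558, whose sequence is given above, was open at like levels in both classes of old replicate 1, 8.45 CPM in proximal tubule-like and 9.83 in macrophage or dendritic cell-like cells.

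Slc7a7 also differed by region. The region at 54409852, which holds the more upstream of the 2 Slc7a7 starts shown above, had 23.1, 34.6 and 24.7 CPM in proximal tubule-like cells, against 9.35 and 9.87 in macrophage or dendritic cell-like cells of old replicate 1 and the young library. The adjoining region at 54409046, which holds the start at 54409472, was called only in old replicate 1, where it had 3.62 CPM in proximal tubule-like cells and 14.7 in macrophage or dendritic cell-like cells. The region at 54387335, inside the gene, was near 0 in the immune class, with 32.6, 38.5 and 42.1 CPM in proximal tubule-like cells against 0.596 CPM in macrophage or dendritic cell-like cells of old replicate 1. Over the 8 genes, 17 of the 51 regions with a peak in old replicate 1 were higher in the macrophage or dendritic cell-like cells. Of all peaks of that library 53.8% were. Among the 17, 11 had a peak in that library alone, as did 67.3% of all its peaks that were higher in those cells.

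Per kilobase of peak, Slc6a19 was the most open in proximal tubule-like cells, at 31.1 ± 1.37 CPM per kb (mean ± SD over the 3 libraries). Slc7a9 followed at 20.7 ± 6.0, Slc3a1 at 18.2 ± 2.73, Slc6a18 at 15.1 ± 6.70, Slc7a7 at 12.9 ± 1.32, Slc1a1 at 8.90 ± 4.38, Slc7a8 at 8.59 ± 2.74 and Slc7a13 at 8.11 ± 4.16. The range of Slc6a19 did not meet that of Slc7a9. The neighbours in the rest of the order overlapped in their ranges over libraries, so that part of the order is not resolved. Peak length also differed by library. Slc7a13 had 4.49 kb of peak in old replicate 1 and 1.90 in each other library, with 3.45, 9.44 and 11.4 CPM per kb.

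Counts were concentrated at the start for some genes and spread for others. The start region of Slc7a9, chr7:35447947-35449250, held 80.1%, 69.7% and 69.8% of its proximal tubule-like counts, and that of Slc6a19, chr13:73692103-73693034, held 57.8%, 47.1% and 46.1%. Slc3a1 drew only 18.8%, 10.0% and 10.5% from its start region, and each of 3 regions between 85040646 and 85044097 held more in every library. For Slc7a7 the start regions held 21.8%, 16.5% and 11.7%, and for Slc7a8 12.3%, 11.2% and 11.9%.

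Late and early cells were compared next, to see where along the proximal tubule each carrier gene is open. Cells with a count at Slc22a7 and none at Slc5a2 were called late, 380 of old replicate 2 plus 501 young ones, and cells with the reverse were called early, 618 and 856. Another 77 and 253 cells had both and 2428 and 1719 had neither, so most proximal tubule-like cells were left out. Old replicate 1 had no peak at Slc5a2, and its 255 proximal tubule-like cells could not be split. The comparison therefore rests on 4 sums from 2 libraries, late against early within each library, with 1 residual degree of freedom (edgeR quasi-likelihood test, two-sided, Benjamini-Hochberg over 30442 genes). Median counts per cell were 19600 in late and 18433 in early cells of old replicate 2, and 34023 and 31448.5 in those of the young library.

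The split followed known segment genes: of 7 late-segment genes 4 rose in late cells and 0 fell, among them Slc5a1, the glucose carrier SGLT1, at log2 0.97. Another of the 4, Serpina1f, had counts in old replicate 2 alone, 15.8 CPM in late and 2.00 in early cells. Of 6 early-segment genes 0 rose and 4 fell, among them Slc5a12, a lactate carrier, at log2 -1.36. The call was lost under 9 of 14 alternative settings for Gatm, which fell, and 6 of 14 for Atp11a, which rose. Settings that leave out a library are in these counts, here and below, but have no test, so no call could be lost under them. Summed macrophage or dendritic cell markers were 177 CPM in late and 149 in early cells of old replicate 2, and 151 and 126 in those of the young library, with 1 of the 10 markers at 0 in each. Summed proximal tubule markers were 1450 CPM in late and 1711 in early cells of old replicate 2, and 1784 and 1799 in young ones. Summed podocyte markers were 500.5 CPM in late and 592 in early cells of old replicate 2, and 436 and 509 in young ones, with 0 of 8 at 0. Their part in the differences below was not tested.

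In late cells 1 of the 8 genes rose and 3 fell. Over all genes tested 2.96% rose and 4.04% fell. The gene that rose was Slc6a18, and those that fell were Slc7a7, Slc7a8 and Slc7a9. The median log2 of late over early was -0.0045 over the 8 genes and -0.0010 over all genes tested. The most changed genes of the whole table were predicted genes, with Gm35815, Gm39133, Gm39713, Gm52920 and Gm39076 between log2 3.24 and 3.53 (Gm52920 and Gm39076 with counts in old replicate 2 alone), and Gm8907, Gm3926, Gm6575, 5033404E19Rik and Gm32038 between -2.34 and -2.12.

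Slc6a18, the brush-border relative of Slc6a19, had 44.8 CPM in late cells of old replicate 2 and 61.4 in those of the young library, against 23.8 and 33.8 in early cells. Both late values exceeded both early values, and the difference was 0.86 on the log2 scale (SE 0.10, adjusted p = 1.06e-07), 1.82-fold.

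Slc6a19, the main neutral carrier, had 189 and 230 CPM in late cells against 192 and 238 in early cells, with log2 -0.05 (SE 0.06, adjusted p = 0.713, 95% interval -0.18 to 0.07). The late and early values of a library lay closer together than the values of the 2 libraries.

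Of the cystine exchanger, the heavy chain Slc3a1 had 170 and 155 CPM in late cells against 161 and 150.2 in early cells, log2 0.05 (SE 0.06, adjusted p = 0.785, 95% interval -0.08 to 0.17). The light chain Slc7a9 had 56.5 and 67.7 CPM in late cells against 83.1 and 77.1 in early cells, and fell by 0.36 (log2, SE 0.09, adjusted p = 0.00395). The late values of Slc7a9 were below both early values, but the sizes differed, log2 -0.57 in old replicate 2 but -0.21 in young cells. The difference between the 2 chains was not tested. The call on Slc7a9 was lost with cells thinned to equal counts (adjusted p = 0.373) and with DESeq2 (adjusted p = 0.141).

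Slc7a13, the other light chain of Slc3a1, had 17.1 and 25.4 CPM in late cells against 18.9 and 20.4 in early cells, log2 0.11 (SE 0.15, adjusted p = 0.776, 95% interval -0.18 to 0.39). The libraries pointed in opposite directions. Slc1a1, the glutamate carrier, had 88.6 and 80.6 CPM in late cells against 84.8 and 68.7 in early cells, log2 0.14 (SE 0.08, adjusted p = 0.355, 95% interval -0.01 to 0.29).

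Both basolateral genes were lower in late cells. Slc7a7 had 191 CPM in late cells of both libraries against 285 and 263 in early cells, and fell by 0.53 (log2, SE 0.06, adjusted p = 3.43e-08). Slc7a8 had 93.8 and 108 CPM in late cells against 153 and 145 in early cells, and fell by 0.56 (SE 0.07, adjusted p = 3.85e-07). Neither gene's late and early values overlapped. With cells thinned to equal counts Slc7a7 was still called and Slc7a8 was not (adjusted p = 0.0996).

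The 4 calls depend on comparing cells within a library. Without the library term no gene was called among all tested, although 1356 had an unadjusted p under 0.05, and DESeq2 with the library term called 538 genes where edgeR called 2131.

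**Figure D2:**
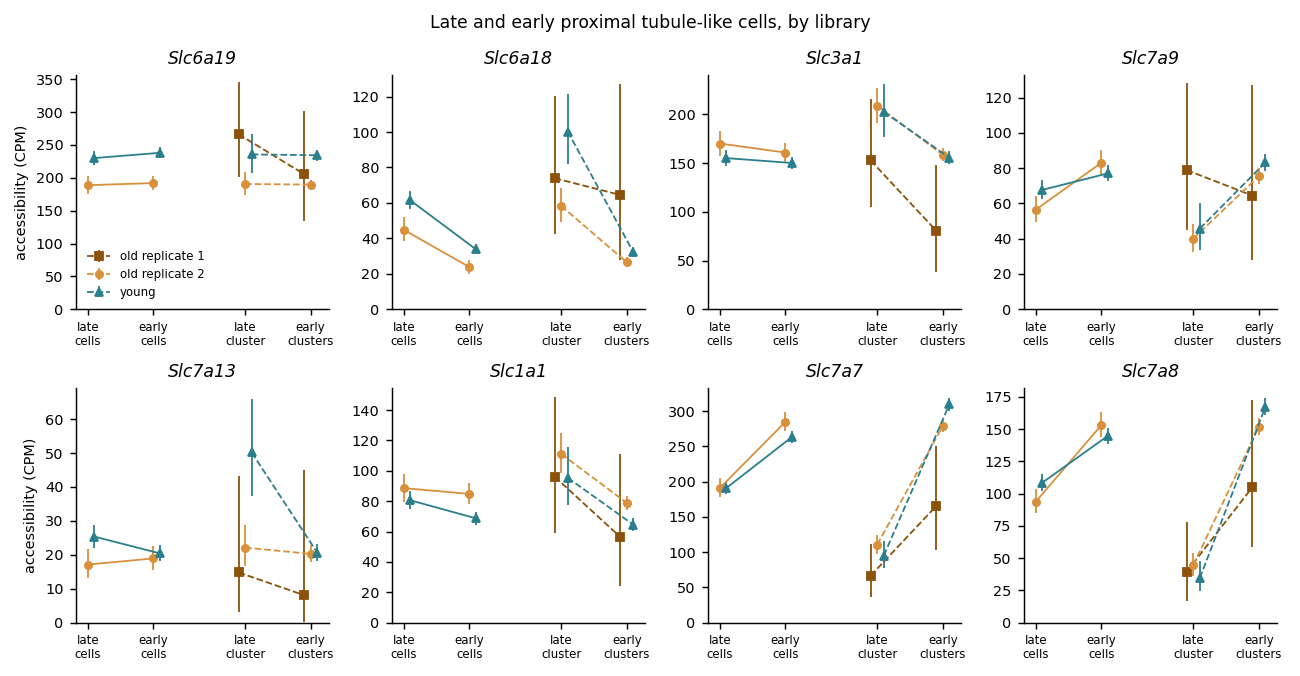
Accessibility (CPM) of the 8 genes in late and early proximal tubule-like cells of 2 libraries (left pairs, solid lines) and in the late cluster and early clusters of all 3 libraries (right pairs, dashed lines), with 95% counting intervals and lines joining points of 1 library. In single cells Slc6a18 is higher in late cells of both libraries, Slc7a9, Slc7a7 and Slc7a8 are lower in both, and Slc7a13 differs in direction between libraries.

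Single cells carry few counts at a marker gene, so the split was also made by cluster, as a description. Cluster 12 had 0.417 CPM of Slc5a2 and 77.2 CPM of Slc22a7 and was called late; it held 15 cells of old replicate 1, 285 of old replicate 2 and 68 young ones. Clusters 4, 5 and 14 were called early, with 17, 1434 and 985 cells. The regions of the 8 genes had been left out of the clustering. The contrasts are given without a test because clusters were formed on the same cells. Summed macrophage or dendritic cell markers were 246, 239.8 and 208.5 CPM in the late cluster, against 125, 143 and 124 CPM in early clusters. Summed proximal tubule markers were 991, 1180 and 1318 CPM in the late cluster, against 1582, 1692 and 1741 CPM in early clusters. Of the 10 macrophage or dendritic cell markers 4, 1 and 2 were at 0 in the late cluster and 5, 1 and 1 in early clusters. Cluster 12 was also 1 of the 3 clusters named by a narrow margin, and the part of these markers in the contrasts was not tested.

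In the late cluster Slc6a18 had 74.0, 58.3 and 100.3 CPM, against 64.5, 26.5 and 32.2 in early clusters. Slc7a7 had 66.6, 111 and 94.9 CPM against 165, 279 and 310 CPM, and Slc7a8 39.4, 44.4 and 34.4 CPM against 105, 152 and 167 CPM. Every library thus had less of both basolateral genes in its late cluster. For old replicate 1, cluster values rest on 15 late cells and on 6, 6 and 5 cells of early clusters 4, 5 and 14.

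Slc7a9 had 78.9, 40.0 and 45.7 CPM in the late cluster against 64.5, 75.5 and 83.2 CPM in early clusters, the other way round in old replicate 1, where the values rest on 32 and 16 counts. Slc3a1 had 153, 209 and 203 CPM against 80.6, 159 and 156, and Slc1a1 96.1, 111 and 95.4 CPM against 56.4, 78.9 and 64.5. Slc7a13 had 14.8, 22.1 and 50.2 CPM against 8.06, 20.3 and 20.6, and Slc6a19 266, 190 and 236 CPM against 206, 190 and 234. Of the 8 genes Slc6a19 had the smallest late to early difference of clusters in both old replicate 2 and young cells.

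**Figure D3:**
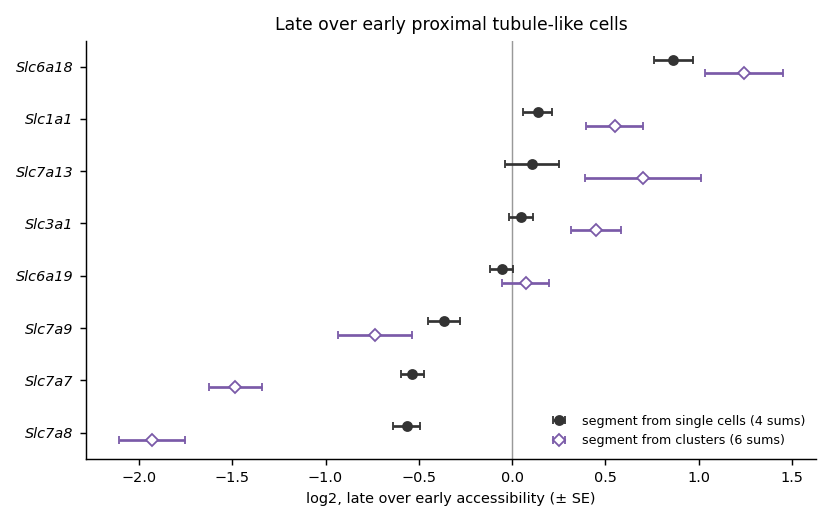
Log2 of late over early accessibility for the 8 genes, from single cells (4 sums, bars are standard errors) and from clusters. Slc6a18 lies right of 0 at 0.86 and Slc7a7 and Slc7a8 left of it at -0.53 and -0.56 for single cells, and the cluster values of these 3 genes lie farther from 0 in the same directions.

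Single regions showed where these differences sit. Of the 80 member regions tested, 5 rose in late cells and 13 fell, while 2.41% of the 141669 regions tested rose and 1.82% fell. Of the 64 with a peak in both libraries 4 rose and 12 fell, against 2.9% and 2.24% of such regions. At Slc6a18 4 of 5 regions rose, 3 of them with a peak in both libraries. The region chr13:73659924-73660856, just outside the gene body, had 9.72 and 8.53 CPM in late cells of old replicate 2 and the young library, against 4.16 and 2.23 in early cells (log2 1.64, adjusted p = 4.70e-05). At 73661548, which has a peak only in the young library, late cells had 7.32 CPM and early cells 1.31, values of 1 library without a replicate. The region at 73674932 had 10.2 and 11.7 CPM against 4.83 and 5.04 (log2 1.20, adjusted p = 0.000592).

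The region chr13:73677649-73678540 counts for both Slc6a18 and Slc6a19, whose windows overlap there. It had 24.9 and 22.0 CPM in late cells against 14.8 and 15.4 in early cells (log2 0.66, adjusted p = 0.00352), and gave 57.1% and 40.3% of the proximal tubule-like counts of Slc6a18 in old replicate 2 and the young library. Other regions of Slc6a19 moved differently. The start region had 86.3 and 105 CPM in late cells against 86.4 and 108 in early cells (log2 0.02, adjusted p = 0.971). The region chr13:73700319-73701219, upstream of the start shown above, at the edge of the gene body and also in the window of Slc6a19os, had 14.0 and 17.1 CPM in late cells against 30.1 and 28.6 in early cells, and fell by 0.86 (adjusted p = 3.31e-05). In the late cluster this region had 1.25 and 0.984 CPM, against 29.5 and 29.3 in early clusters, while the start region had 93.6 and 117 CPM against 85.0 and 102.

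At Slc3a1 1 of 12 regions rose: chr17:85044483-85045233 had 18.5 and 14.9 CPM in late cells against 9.58 and 9.81 in early cells (log2 0.80, adjusted p = 0.00419). Its start region had 17.4 and 16.7 CPM against 16.0 and 16.0 (log2 0.13, adjusted p = 0.844). None of the 5 regions of Slc7a9 was called, although all 5 were below 0, nor were any of the 2 tested at Slc7a13 or the 15 tested at Slc1a1. The start region of Slc7a9 had 39.6 and 48.0 CPM in late cells against 57.1 and 53.4 in early cells (log2 -0.28, adjusted p = 0.102).

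Of 21 regions tested at Slc7a7, 7 fell, 0 rose and 19 were below 0. Its region at 54409852, which holds the start at 54410203, had 25.4 and 20.6 CPM in late cells against 45.0 and 31.1 in early cells, and fell by 0.66 (adjusted p = 0.000210). In clusters the contrast there was 4.58 and 1.97 CPM in late against 44.4 and 39.3 CPM in early cells of old replicate 2 and the young library. The other 2 of the 21 regions, both upstream of it, were above 0 without a call. The region at 54413924 had 21.1 and 25.9 CPM in late cells against 18.3 and 23.6 in early cells (log2 0.20, adjusted p = 0.551). The region at 54417434, which holds the 3 most upstream starts of Slc7a7, had 4.79 and 2.48 CPM against 3.75 and 2.88 (log2 0.09, adjusted p = 0.970). The region at 54387335, the one with most counts, had 31.6 and 34.6 CPM in late cells against 46.1 and 48.2 in early cells, and fell by 0.47 (adjusted p = 0.00338).

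Of 15 regions tested at Slc7a8, 5 fell and 0 rose. The start region at 54781558 had 10.8 and 12.1 CPM in late cells against 16.2 and 18.9 in early cells, and fell by 0.59 (adjusted p = 0.0367). A region just upstream of it, chr14:54782795-54783656, also in the window of Rnf212b, had 14.0 and 16.9 CPM in late cells against 25.6 and 28.8 in early cells, and fell by 0.77 (adjusted p = 0.000231); in clusters it had 2.08 and 1.97 CPM in late against 26.5 and 33.7 in early cells. The region at 54756115, the one most open in macrophage or dendritic cell-like cells, also fell in late cells, with 2.46 and 1.21 CPM against 5.66 and 4.12 (log2 -1.46, adjusted p = 0.00920). It had 0 counts in the late cluster of both libraries. The lowest call, at 54747905 (adjusted p = 0.050), was lost with RLE scaling (adjusted p = 0.0573).

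**Figure D4:**
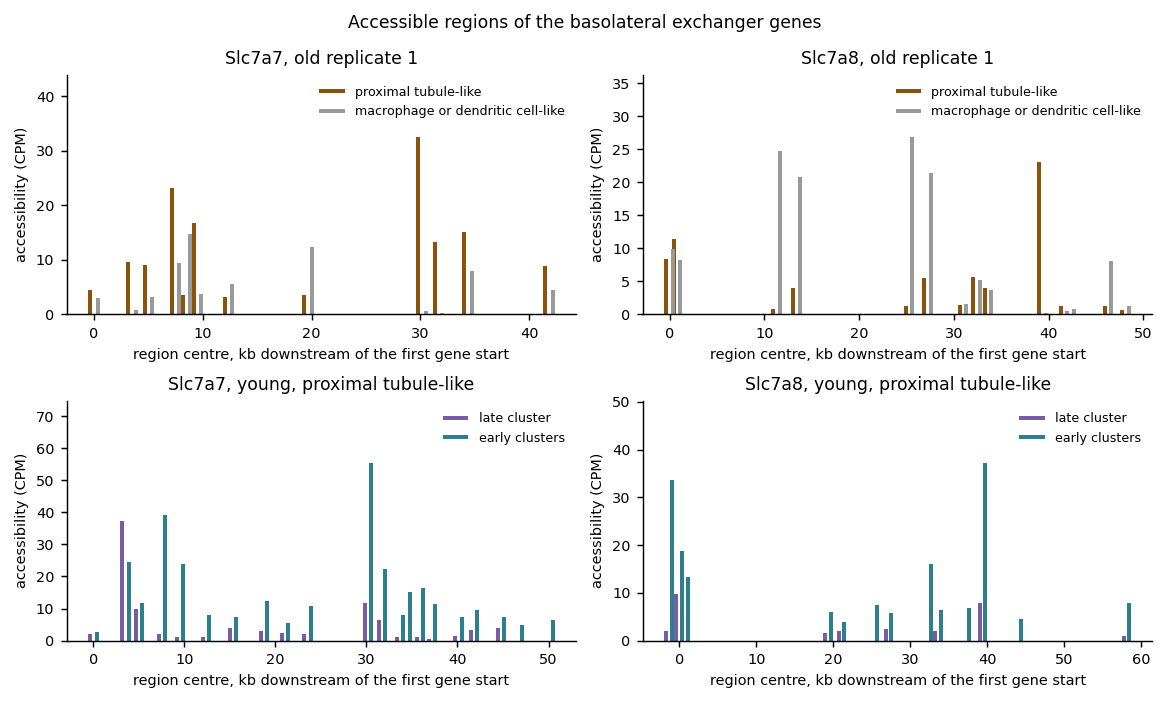
Accessibility (CPM) of the regions of Slc7a7 and Slc7a8 by the distance of their centres from the first gene start (kb downstream). Upper panels set proximal tubule-like beside macrophage or dendritic cell-like cells of old replicate 1, and lower panels the late cluster beside early clusters of young proximal tubule-like cells; the Slc7a7 region that holds the start at 54410203 has 1.97 CPM in the late cluster and 39.3 in early clusters.

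Genes that work with these carriers were read in the same comparison. Among partner proteins, Slc3a2, the heavy chain of both basolateral genes, had 97.2 and 112 CPM in late cells against 93.8 and 108 in early cells (log2 0.03, adjusted p = 0.870). Cltrn, collectrin, which brings Slc6a19 and Slc6a18 to the kidney brush border, had 19.2 and 22.1 CPM against 24.1 and 31.7 and fell by 0.46 (adjusted p = 0.0250).

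Among 20 other amino acid and peptide transporters 3 rose and 6 fell, with a median log2 of -0.05. Slc7a12, a relative of Slc7a13 that is also on the late-segment list, rose by 0.94 (adjusted p = 0.000729), Slc38a3, the basolateral glutamine carrier SNAT3, by 0.65 (adjusted p = 0.00331) and Slc15a2, the high-affinity peptide carrier PEPT2, by 0.38 (adjusted p = 0.0398). Slc15a1, the low-affinity peptide carrier PEPT1, fell by 0.67 (adjusted p = 0.000392), and Slc7a2, a carrier of dibasic amino acids, by 0.75 (adjusted p = 2.36e-05). Slc43a2 (LAT4) fell by 0.44 and Slc16a10 (TAT1), a carrier of aromatic amino acids, by 0.39, both basolateral (adjusted p = 2.14e-05 and 6.25e-05). Slc36a1 fell by 0.26 and Slc6a6, the taurine carrier, by 0.22 (adjusted p = 0.0485 and 0.0185). The call on Slc36a1 was lost under 9 of 14 alternative settings and that on Slc15a2 under 7 of 14, counts that include the untested settings without a library. Calls on the other transporters named here were lost under fewer.

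Of 8 brush-border peptidases, which free amino acids from filtered peptides, 3 rose and 2 fell. Mep1b, a meprin subunit, had 4.53 and 7.38 CPM in late cells against 0.25 and 1.97 in early cells (log2 2.41, adjusted p = 5.29e-05), and Mep1a, the other subunit, 81.0 and 119 CPM against 55.8 and 88.3 (log2 0.45, adjusted p = 5.38e-05). Mme, neprilysin, rose by 0.29 (adjusted p = 0.0222). Dpep1, a dipeptidase, fell by 0.75 (adjusted p = 2.76e-07) and Anpep, aminopeptidase N, by 0.28 (adjusted p = 0.0188). The call was lost under 7 of 14 alternative settings for Mme, 6 for Anpep, 3 for Mep1a and 2 for Dpep1, and under 1 of 11 for Mep1b. Untested settings that leave out a library are again included.

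With age, none of the 8 genes was called in proximal tubule-like cells. The test set the 2 old libraries against the 1 young one over regions common to all libraries (edgeR quasi-likelihood test, two-sided, Benjamini-Hochberg over 25550 genes), and 0.536% of genes rose and 0.204% fell. The spread came from the 2 old libraries alone, with 1 residual degree of freedom, and was moderated over all genes tested. Thus Slc6a19, with 198 and 203 CPM in the old libraries, and Slc7a7, with 146 and 214, both had an SE of 0.18. None of the 8 had an unadjusted p under 0.05, and DESeq2 called none.

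Over these common regions Slc6a19 had 198 CPM in old replicate 1 and 203 in old replicate 2, against 233 in the young library, log2 -0.23 (SE 0.18). Slc6a18 had 44.6 and 30.9 CPM in old libraries against 28.2, log2 0.38 (SE 0.26). Slc3a1 had 123 and 145 CPM against 156, log2 -0.22 (SE 0.18). For Slc6a19 and Slc3a1 both old libraries were below the young one, and for Slc6a18 both were above it.

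Slc7a9 had 67.1 and 73.0 CPM in old libraries against 75.3 in the young one, log2 -0.11 (SE 0.20). Slc7a13 had 16.2 and 19.2 CPM against 24.5, log2 -0.46 (SE 0.32), and Slc1a1 66.2 and 66.1 against 61.2, log2 0.10 (SE 0.21). The intervals of these values all hold 0, the widest being that of Slc7a13, -1.09 to 0.17.

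For the basolateral genes the old libraries lay apart. Slc7a7 had 146 CPM in old replicate 1 and 214 in old replicate 2, against 198 in the young library, log2 -0.13 (SE 0.18). Slc7a8 had 63.6 and 92.0 CPM against 101, log2 -0.36 (SE 0.19, unadjusted p = 0.0585, adjusted p = 1.00, 95% interval -0.73 to 0.01). Without old replicate 1 the log2 was 0.12 for Slc7a7 and -0.13 for Slc7a8, and without old replicate 2 it was -0.47 and -0.70, values with no test. Macrophage or dendritic cell markers summed to 230 CPM in proximal tubule-like cells of old replicate 1 and 163 in those of old replicate 2, against 140 in the young library, with 1 of 10 at 0 in each. Their part in these values was not tested. In the 3 clusters that held at least 10 cells of every library (clusters 10, 12 and 16, with 110, 878 and 188 cells), the log2 of old over young was 0.15 for Slc7a7 and 0.29 for Slc7a8, again with none of the 8 genes called.

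Among regions common to the libraries, 35 belonged to the 8 genes. None was called, 14 were above 0 and 21 below, while 0.397% of the 72316 regions tested rose with age and 0.0263% fell. The lowest adjusted p of the 35 was 0.576, at a region of Slc6a18 with log2 1.20.

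Within segments age rests on old replicate 2 and the young library, 1 against 1, with no test. In late cells Slc6a18 had a log2 of 0.22, Slc7a7 0.12, Slc1a1 0.04, Slc3a1 -0.05, Slc6a19 -0.17, Slc7a8 -0.21, Slc7a9 -0.26 and Slc7a13 -0.75. None of the 8 passed 2-fold, as 4.28% of genes did upward and 1.16% downward. In early cells the 8 values lay between -0.25 for Slc6a19 and 0.25 for Slc1a1, none past 2-fold, against 3.16% of genes upward and 0.797% downward.

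**Figure D5:**
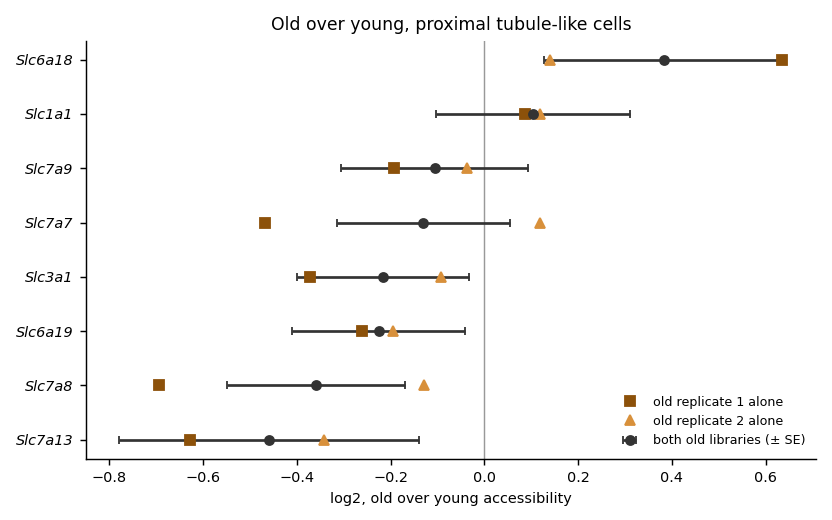
Log2 of old over young accessibility of the 8 genes in proximal tubule-like cells over common regions, for both old libraries together (points, bars are standard errors) and for old replicate 1 (squares) and old replicate 2 (triangles) alone. The single-library values lie on both sides of 0 only for Slc7a7, at -0.47 and 0.12.

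Of the other lists, 0 of 20 transporters were called with age. Dpp4, a brush-border dipeptidyl peptidase, was the 1 call among 7 tested peptidases, and fell by 0.78 (adjusted p = 0.0148). It was lost under 7 of the 14 alternatives, where the adjusted p reached 1.00. The alternatives that leave out an old library have no test and could not lose it.

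How alike the genes are was described over 33 sums of at least 50 cells per library and cluster, which share libraries and depth. Correlation of log2 CPM was highest for Slc3a1 and Slc7a9, the 2 chains of the exchanger, at Pearson r = 0.972, and for Slc3a1 and Slc1a1 at 0.971. It was lowest for the pairs of Slc7a8, from 0.255 with Slc7a13 to 0.60 with Slc7a7. Within the 16 proximal tubule-like sums the genes fell into other pairs: Slc6a19 with Slc3a1 at 0.881, Slc7a9 with Slc7a7 at 0.874, Slc7a7 with Slc7a8 at 0.844 and Slc6a18 with Slc3a1 at 0.839. There Slc6a18 with Slc7a7 gave -0.184, and Slc3a1 with Slc7a9 only 0.211. The genes outside the 8 windows most like their mean were Sel1l3 (r = 0.981), Gm39690 (0.979), Lrp2, the endocytic receptor megalin (0.977), Gm15318 (0.976) and Gm12701 (0.976).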

How the data were processed

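Accessibility was measured by mtscATAC-seq in 3 kidney libraries, grouped by their labels. The authors' tool was Cell Ranger ATAC 2.1.0 with mm10, per the file headers and the submitters' processing notes. Each deposited matrix holds unnormalized counts of transposition events by peak and cell barcode, over peaks called separately for every library. Most deposited counts were even (89.5% to 94.3%), since both ends of a fragment count, so exact 95% Poisson intervals were computed on fragments and cover counting error only.

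Peaks were merged at 1 bp of overlap into 250005 regions, 72317 of them common to all libraries. Cells with at least 1000 counts were kept, and simulated-doublet scores removed 248, 133 and 135 barcodes (0.8% per 1000). Cells were clustered by latent semantic indexing and Leiden at resolution 1.0 (leidenalg 0.10.2, 20 neighbours, seed 7), without the regions of the 8 genes and related lists, and clusters were named from marker lists. Segments came from single-cell counts at Slc5a2 and Slc22a7.

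Sums per library were tested with edgeR 4.0.16 (quasi-likelihood, TMM, filterByExpr, R 4.3.3), a library term in late against early, Benjamini-Hochberg adjustment and a threshold of 0.05; DESeq2 1.42.0 was an alternative. Standard errors were derived from the log2 value and the F statistic of the test, and 95% intervals on log2 values are normal approximations from them. Those intervals do not allow for the few residual degrees of freedom. The dispersion of each gene or region was moderated toward a trend over all those tested, so a standard error is not its own spread between libraries. Age was tested over common regions and segments over all merged regions, where a library without a peak counts as 0. Late against early had been planned on 6 sums and used 4, because old replicate 1 has no Slc5a2 peak; for the same reason age within segments is 1 against 1, given as values at a set dispersion of 0.05. The fits were also run on simulated counts with known changes, at a single set dispersion for all features and no library effect. Those settings are simpler than these data and cannot check the p-values given here.

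The 8 genes, the lists and the tests were chosen with earlier results of these data known. Named genes are the 8, list genes past the threshold, the 5 most like the mean of the 8 (log2 of CPM plus 5), and the 5 most changed each way. Promoter sequences came from a RefSeq table (GRCm38.p6), where Slc6a18 and Slc7a13 were not matched. A partner gene on the lists is not reported here.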

Additional observations from a re-analysis of the deposited data

Results flagged for a closer look

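In 3 of the comparisons a gene moved in opposite directions in the 2 groups set side by side, with 1 sum per group, and none of these differences was tested. Slc7a13 had a log2 of late over early of -0.16 in old replicate 2 but 0.29 in young cells. Slc7a9 had a log2 of old replicate 2 over young of -0.26 in late cells and 0.09 in early cells. Slc7a8 had -0.21 in late cells and 0.04 in early cells in the same comparison.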

How the results depend on the processing

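Age genes numbered 189 and became 73 with DESeq2, 0 with all merged regions (477 at an unadjusted p under 0.05), 91 within 1 kb of the gene start, 99 with cells thinned to 3000 counts, 93 at Leiden resolution 2.0, 99 without clusters of narrow margin and 81 in clusters shared by all libraries, with the last 2 alternatives chosen after seeing the data. Age regions went to 181 with RLE, against 306. The 2131 late over early genes became 538 with DESeq2, 0 without the library term, 613 within 1 kb of the start, 326 when thinned and 957 with at least 3 marker counts. The difference of late over early between ages had 1110 genes past 2-fold, 1805 over regions of old replicate 2 and young and 3826 from clusters.

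Signs turned, without a call on either side, for old over young of Slc6a18 (-0.37) and Slc1a1 (-0.014) with all merged regions, of Slc7a7 within 1 kb of the start (0.10), of Slc7a9 when thinned (0.066), of Slc7a9 (0.035) and Slc7a7 (0.077) without clusters of narrow margin, and of Slc3a1 (0.17), Slc7a9 (0.35), Slc7a7 (0.15) and Slc7a8 (0.29) in shared clusters. For late over early they turned for Slc6a19 over common regions (0.043) and from clusters (0.074), Slc3a1 over common regions (-0.012), within 1 kb of the start (-0.034) and when thinned (-0.017), Slc7a13 over common regions (-0.017), and the called Slc43a2 within 1 kb of the start (0.020). The cause was not tested.

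No paired analysis was possible because, for old over young, the labels give the young library no replicate number; late over early was fitted within libraries. Leaving out a library leaves no residual degrees of freedom, so those fits gave values and no counts, and Slc6a18 and Slc7a13 have no start value. With medians of 14400 and 28440 counts per cell, 69.3% and 51.6% of proximal tubule-like cells of old replicate 2 and the young library had no count at either marker.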

Other observations

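Cluster 19, which the markers left without a name, held 61 young cells and 9 of old replicate 2, and its leading genes were Klra9, Sall3 and Sall1. In its young cells Slc1a1 had 285 CPM, Slc7a9 221 CPM and Slc3a1 128 CPM, against 74.0, 73.4 and 151 CPM in young proximal tubule-like cells, and Slc6a19, Slc7a7 and Slc7a8 had 38, 19 and 9.51 CPM. Over regions common to the libraries Slc1a1, Slc7a9 and Slc3a1 were lower in these cells, at 16.5, 8.27 and 33.1 CPM. Young proximal tubule-like cells had 61.2, 75.3 and 156 CPM there. Slc6a19 had 132 against 233 CPM over those regions. The median was 3425 counts per cell in cluster 19, against 28440 in young proximal tubule-like cells.

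In these young cells most counts of 3 genes came from regions little used in proximal tubule-like cells. Of the 93 counts at Slc7a9, 92 lay in chr7:35453679-35454560, which had 1.83 CPM in young proximal tubule-like cells. Of the 54 at Slc3a1, 50 lay in chr17:85036154-85036994 (1.97 CPM), as did 15 of 18 in the 9 cells of old replicate 2. Those 9 cells had 0 counts at Slc1a1 and 6 at Slc7a9, all in 1 cell, with 4 of the 6 in the start region. Of the 120 young counts at Slc1a1, 74 lay in chr19:28897114-28897996 (0.957 CPM). A count at Slc7a9, Slc3a1 and Slc1a1 was seen in 27, 15 and 25 of the 61 young cells. With 1 library holding nearly all of these cells, the values were not tested.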
